A study of Mus musculus with 16 samples.

Results

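Angiotensinogen and 5 further genes of the renin-angiotensin system were followed across 4 groups of mouse hearts. The members were the rows of the deposited gene table with the symbols Agt, Ace, Agtr1a, Enpep, Atp6ap2 and Nr3c2, which made 6 of 18346 genes. They were picked by name, with earlier results of these same hearts known, so the p-values below say where each gene stood in a fit over all genes and are not independent evidence for the choice. The groups were KO_Aged (systemic Armh4 knockout, 25 months), WT_Aged (wild type C57BL/6J, 25 months), KO_Young (systemic Armh4 knockout, 8 weeks) and WT_Young (wild type C57BL/6J, 8 weeks). The Armh4 knockout was systemic, so the genotypes differed in every organ and not in the heart alone. The background strain of the knockout mice, the sex of the animals and whether knockout and wild type were littermates are not given in the sources used here. Each group had 4 hearts, described as independent biological replicates, and RNA was sequenced in bulk from each of the 16. Hearts are named by group and animal number.

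In the renin-angiotensin system the kidney protease renin cuts angiotensinogen, a protein made mainly by the liver, to angiotensin I. Angiotensin-converting enzyme (ACE) turns this into angiotensin II, which raises blood pressure through the type 1 receptor and releases aldosterone, the ligand of the mineralocorticoid receptor. Heart tissue holds several of these components itself, in fibroblasts, vessel cells and cardiac muscle cells, and angiotensin II is known there for promoting growth of muscle cells and fibrosis.

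Agt was high in the young wild-type hearts and low in the other 3 groups. It fell in young knockout hearts against young wild-type hearts and in aged wild-type hearts against young wild-type hearts, each time to about the same level. Of 8 fits that left out 1 heart, the young knockout call held in 3 and the wild-type ageing call in 8. Nr3c2 was the only other member to pass the test in any of the comparisons, and it fell with age in wild-type hearts. The Nr3c2 call held in 4 of 8 such fits. Ace, Enpep, Agtr1a and Atp6ap2 passed in none with all 16 hearts in the fit.

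The promoters of Agt and Nr3c2 are shown because these were the members that passed the test. Both run from 250 bases before to 50 bases after the RefSeq start site, 5′ to 3′ on the gene's strand, on mouse build GRCm38.p6, which is an older build than the GRCm39 named for the deposited tables. Capitals mark the TATA-box letters TATAAA and the GC-box letters GGGCGG on either strand, where GGGCGG reads CCGCCC on the other strand. The Agt window lies at chr8:124569657-124569956 on the minus strand, and the Nr3c2 window at chr8:76902080-76902379 on the plus strand.
Agt: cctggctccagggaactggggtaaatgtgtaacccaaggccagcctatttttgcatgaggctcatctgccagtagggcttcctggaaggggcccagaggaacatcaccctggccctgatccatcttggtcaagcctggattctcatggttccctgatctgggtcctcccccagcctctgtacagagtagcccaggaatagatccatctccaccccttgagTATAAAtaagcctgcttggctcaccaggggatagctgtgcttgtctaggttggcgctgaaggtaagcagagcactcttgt
Nr3c2: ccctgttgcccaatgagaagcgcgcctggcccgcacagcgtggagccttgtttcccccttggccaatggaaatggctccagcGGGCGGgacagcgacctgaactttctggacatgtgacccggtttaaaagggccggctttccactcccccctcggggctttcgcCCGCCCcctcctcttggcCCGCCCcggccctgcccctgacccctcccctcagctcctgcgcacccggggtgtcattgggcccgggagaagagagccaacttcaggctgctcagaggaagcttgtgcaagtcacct
The Agt window held 1 TATAAA, which began at base -30 relative to the start site, and no GGGCGG, and 54.7% of its bases were G or C. The Nr3c2 window held 3 GGGCGG and no TATAAA, and 65.7% of its bases were G or C. Of 32851 RefSeq promoters of the same length, 13.6% held TATAAA and 35.7% held GGGCGG on either strand. The windows of Ace (first start site), Enpep and Atp6ap2 held 1, 2 and 0 TATAAA and 4, 0 and 2 GGGCGG. The letters TGTTCT, part of the site that steroid hormone receptors bind, were in neither of the printed windows and in 1 of the 6 windows matched to members, that of Atp6ap2, against 19.0% of all promoters. These matches describe letters and not bound sites. Agtr1a had no entry matched.

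Library totals lay between 11456503 and 13298660 counts, and 13373 genes had enough counts to be tested, all 6 members among them. Levels of genes are given in CPM, counts scaled to the library total times its TMM factor, which corrects for differences in composition. Sums of marker genes are scaled to the plain library total. Markers named singly were picked after their values were seen. Log2 fold changes and their standard error (SE) were estimated with the quasi-likelihood model of edgeR, and p-values were adjusted over all genes tested by the method of Benjamini and Hochberg (BH), with a threshold of 0.05. The targeted gene followed the labels: Armh4 averaged 1.14 ± 0.368 CPM in KO_Aged and 18.5 ± 1.94 CPM in WT_Aged hearts, and 0.374 ± 0.198 CPM in KO_Young and 15.5 ± 2.49 CPM in WT_Young hearts (SD, n = 4 each). The remaining Armh4 RNA was higher in aged than in young knockout hearts, by 1.59 ± 0.36 (SE, edgeR BH-adjusted p = 0.00941). It rested on 11 to 22 counts in KO_Aged and 1 to 6 counts in KO_Young hearts. Summed markers of heart muscle cells (7 of 7 measured) lay between 59372 and 76057 CPM in all hearts, and hepatocyte markers, of which none had enough counts to be tested, between 0.0794 and 8.09 CPM. A pair of hearts stood apart in several members. WT_Aged heart 1 was the lowest of all 16 in Agtr1a, Enpep and Nr3c2 and the highest in Atp6ap2, and WT_Young heart 29 was the highest in Agt and the second lowest in Agtr1a and Nr3c2. Among marker sums, WT_Aged heart 1 was also the lowest of all 16 for heart muscle cells (59372 CPM). It was the highest for macrophages (441 CPM) and for erythroid cells (1704 CPM).

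Angiotensinogen, encoded by Agt (Entrez 11606), is the substrate from which every angiotensin peptide is cut. Because the gene is weak in heart, its raw counts come first. KO_Aged hearts had 41, 36, 36 and 45 counts of Agt (KO_Aged_114, KO_Aged_115, KO_Aged_122 and KO_Aged_125, an order kept below), against 31, 47, 43 and 35 counts in WT_Aged hearts 12, 4, 5 and 1. KO_Young hearts 27, 31, 38 and 53 had 31, 44, 41 and 22 counts, against 252, 74, 113 and 75 counts in WT_Young hearts 29, 34, 39 and 42. All 4 WT_Young hearts stood above all other 12. The counting error alone gave 95% exact Poisson intervals of 222 to 285 counts for heart 29, 58.1 to 92.9 for heart 34 and 13.8 to 33.3 for KO_Young heart 53, the lowest. Reads carried no molecular identifiers, so these intervals cover counting error only.

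After scaling, Agt had 3.13, 2.98, 2.74 and 3.64 CPM in KO_Aged hearts and 2.48, 3.72, 3.28 and 2.84 CPM in WT_Aged hearts. The KO_Young hearts had 2.61, 3.62, 3.38 and 1.83 CPM and the WT_Young hearts 20.3, 5.95, 9.73 and 6.29 CPM. The lowest WT_Young heart had 1.60 times the level of the highest of the other 12 hearts. Of the 13373 genes tested, 147 or 1.10% had all WT_Young hearts above the other 12. Agt was picked with earlier results known, so this share is not independent evidence either. The mean of 10.6 ± 6.70 CPM in WT_Young was 3.50 times the mean of 3.02 ± 0.559 CPM over the other 12 hearts, and 2.42 times without heart 29.

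**Figure D1:**
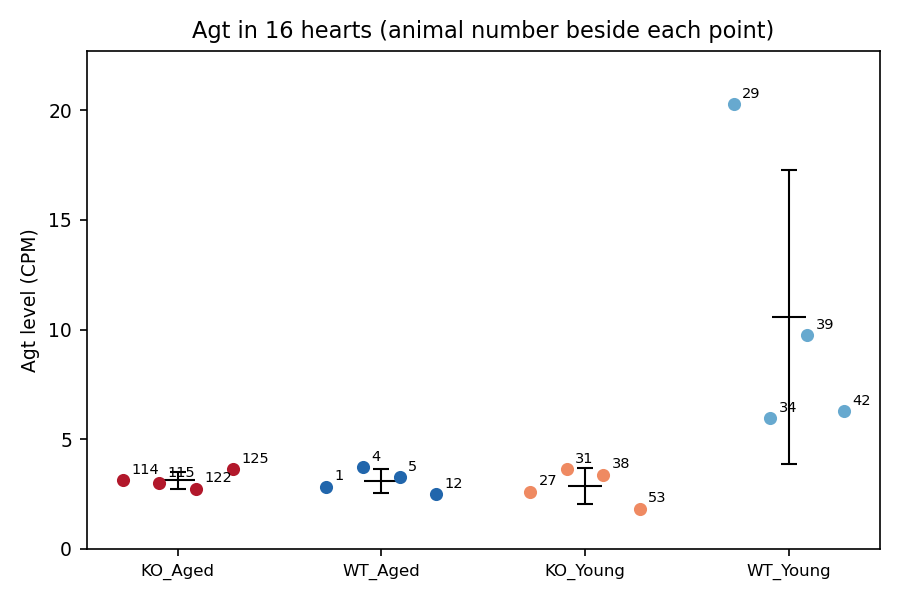
Agt level in CPM (vertical axis) in each heart, with 1 point per heart, the group mean as a long bar and the SD as a whisker, for KO_Aged, WT_Aged, KO_Young and WT_Young. The 12 hearts of the first 3 groups sit between 1.83 and 3.72 CPM, and the 4 WT_Young hearts between 5.95 and 20.3 CPM.

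Against young wild-type hearts, Agt was lower in young knockout hearts by a log2 change of -1.88 ± 0.33 (SE, 95% interval -2.58 to -1.18, edgeR BH-adjusted p = 0.0297, lower in 4 of 4 hearts). In this comparison 36 genes or 0.269% of those tested passed, 0.217% as lower, and 1 of the 6 members did. All 4 KO_Young hearts lay under all 4 WT_Young hearts for Agt, as did 4.43% of all genes. The call did not hold when any 1 of 5 hearts was left out: the BH-adjusted p of edgeR was 0.115 without KO_Young heart 27, 0.0880 without heart 31, 0.0590 without heart 38, 0.0767 without heart 53 and 0.0741 without WT_Young heart 39. Without WT_Young heart 29 the change was -1.34 with an adjusted p of 0.0237. It was also lost in a fit of the 2 groups alone (-1.89, adjusted p = 0.117) and with limma on log2(FPKM + 1) (-1.32, adjusted p = 0.110), where FPKM are the authors' values per gene length and library size.

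The ageing comparison in wild-type hearts gave a change of Agt of similar size, -1.77 ± 0.33 (SE, 95% interval -2.46 to -1.09, edgeR BH-adjusted p = 0.000848, lower in 4 of 4 hearts). Here 2906 genes or 21.7% passed, 9.93% as lower, and 2 of the 6 members passed as lower, Agt and Nr3c2. The Agt call held in each of 8 fits that left out 1 heart of either group, with changes between -1.96 and -1.23. Both comparisons use the same 4 WT_Young hearts, so their values are given side by side and are not separate evidence.

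Among the hearts with low Agt no difference was detectable at this depth. Aged knockout hearts differed from aged wild-type hearts by 0.02 ± 0.36 (SE, 95% interval -0.74 to 0.78, edgeR BH-adjusted p = 0.997), and aged from young knockout hearts by 0.12 ± 0.37 (95% interval -0.65 to 0.89, adjusted p = 0.888). With edgeR, 0 of 6 members passed in either comparison, where 0.875% and 7.63% of all genes did. At an unadjusted p under 0.05 it was 1 member in each, and DESeq2 called 0 in each. Many genes reached that level in edgeR. By their rank, at least 1331 of the 13373 genes did in KO_Aged against WT_Aged and 2869 in KO_Aged against KO_Young. In KO_Young against WT_Young at least 1394 did. Counts at an unadjusted p under 0.05, here and below, stand beside these numbers and are not read as results. The test of the difference itself, the ageing change in knockout minus the ageing change in wild type, gave 1.90 ± 0.49 for Agt (SE, 95% interval 0.86 to 2.93, unadjusted p = 0.00121, edgeR BH-adjusted p = 0.103). It did not pass in edgeR, where 0.464% of all genes passed, and it did in DESeq2, a second count model (1.90, adjusted p = 0.0111). Without WT_Young heart 29 the edgeR value was 1.36.

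**Figure D2:**
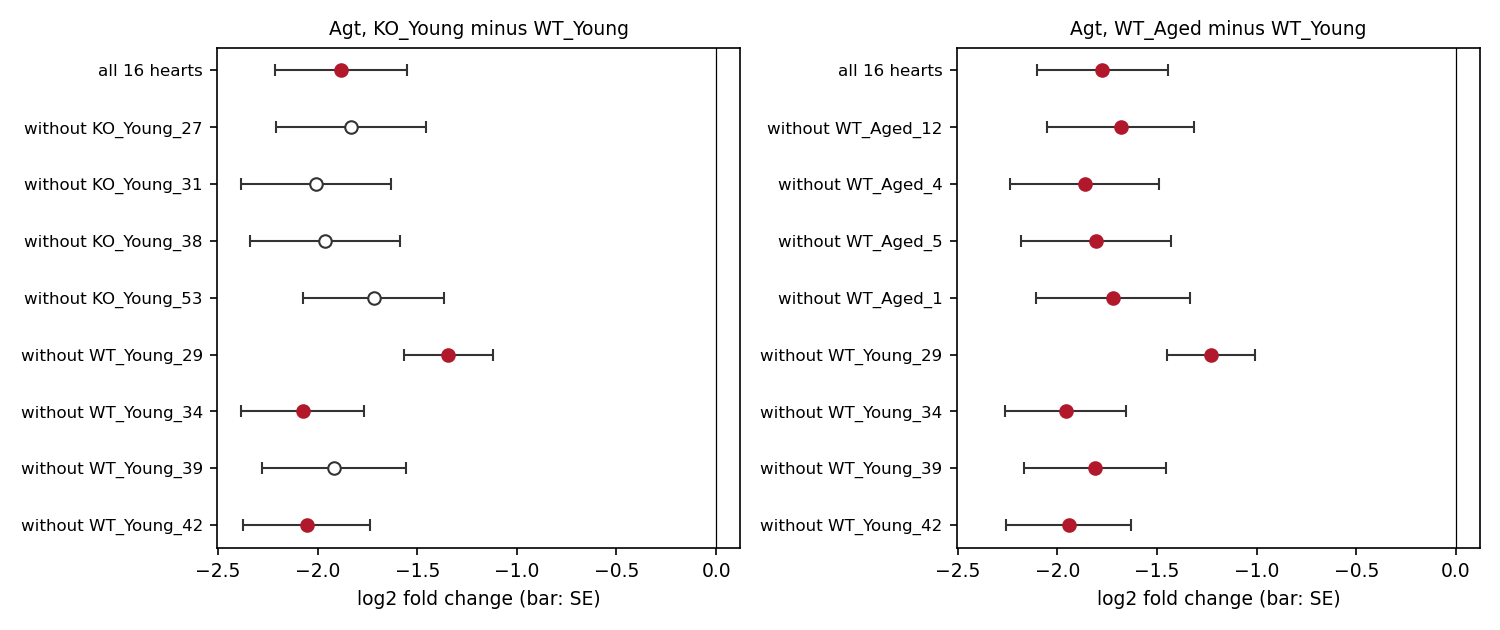
Log2 fold change of Agt with its SE (horizontal axis) in the fit of all 16 hearts and with 1 heart left out at a time (rows), for KO_Young minus WT_Young on the left and WT_Aged minus WT_Young on the right. Filled points have a BH-adjusted p under 0.05: 3 of 8 on the left and 8 of 8 on the right, and leaving out WT_Young heart 29 moves both values closest to 0, to -1.34 and -1.23.

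Agt varied more within WT_Young than most genes of its level. Its coefficient of variation was 63.4% there, above 99.8% of 3567 genes of like mean level, whose median was 10.6%. Heart 29 weighed on this value, with 3.22 times the median CPM of the other 3 WT_Young hearts, and the coefficient without it was not computed. In KO_Aged, WT_Aged and KO_Young the coefficient of Agt was 12.1%, 17.5% and 28.3%, where like genes had medians of 17.9%, 21.5% and 19.5%.

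Markers of other cells that could carry Agt were set beside it. Bulk RNA cannot tell fewer cells of a type from less RNA per cell. The 5 smooth muscle markers summed to 214 to 280 CPM in KO_Young and 278 to 536 CPM in WT_Young hearts, and to 178 to 311 CPM in KO_Aged and 176 to 285 CPM in WT_Aged hearts. Much of these sums was 1 gene, Myocd, with 95.6 to 123 CPM in KO_Young and 104 to 148 CPM in WT_Young hearts. It had 94.3 to 113 CPM in KO_Aged and 82.7 to 121 CPM in WT_Aged hearts. Heart 29, the highest in Agt, was also the highest of all 16 in the smooth muscle sum and in the pericyte and adipocyte sums below. Heart 39, the second highest in Agt, had the lowest smooth muscle sum of the WT_Young hearts, 278 CPM. With edgeR, 0 of the 5 passed in KO_Young against WT_Young. Acta2, the smooth muscle actin, had -0.93 ± 0.34 there (SE, BH-adjusted p = 0.341). The 6 pericyte markers summed to 1387 to 1559 CPM in KO_Young and 1546 to 1709 CPM in WT_Young hearts, and 0 passed there. Their sums were 1333 to 1583 CPM in KO_Aged and 1212 to 1556 CPM in WT_Aged hearts. Of the 6, 3 fell in WT_Aged against WT_Young, where 9.93% of all genes fell. The 7 fibroblast markers summed to 2200 to 2904 CPM in KO_Young and 2068 to 2642 CPM in WT_Young hearts, and 0 passed there. Their sums were 2450 to 3256 CPM in KO_Aged and 2099 to 2844 CPM in WT_Aged hearts. In WT_Aged against WT_Young, 1 of 7 fibroblast markers fell, the collagen gene Col1a1 with -1.23 (adjusted p = 0.000292), and 1 of 5 smooth muscle markers fell, Myocd with -0.47 (adjusted p = 0.0205). The remaining smooth muscle markers, Acta2, Myh11, Tagln and Cnn1, had -0.87, -0.99, -0.90 and -1.46 there and did not pass (edgeR BH-adjusted p = 0.0878, 0.102, 0.194 and 0.121). Of 8 adipocyte markers, 2 had enough counts to be tested, and the sum of all 8, of 24.1 to 30.4 CPM in KO_Young and 31.2 to 47.0 CPM in WT_Young hearts, was mostly Cidea, a lipid droplet protein. In KO_Aged hearts the sum was 28.3 to 32.1 CPM and in WT_Aged hearts 24.8 to 37.4 CPM. Cidea fell in KO_Young against WT_Young by 0.59 on the log2 scale (edgeR BH-adjusted p = 0.0486). In WT_Aged against WT_Young, Cidea fell by 0.40 (adjusted p = 0.0239). The fat cell genes Adipoq, Plin1 and Cfd had 1 to 15, 0 to 6 and 3 to 45 counts in KO_Young hearts, against 0 to 2, 1 to 6 and 2 to 36 counts in WT_Young hearts. Lep and Ucp1 had 0 or 1 count in every library. Hepatocyte markers, on few counts, summed to 0.0794 to 3.95 CPM in KO_Young and 0.158 to 0.490 CPM in WT_Young hearts. Their sums were 0.436 to 0.568 CPM in KO_Aged and 0.829 to 8.09 CPM in WT_Aged hearts. The heart highest in this sum was also the highest in Agt within KO_Aged, WT_Aged and KO_Young, and not within WT_Young. The part of smooth muscle, pericytes, fibroblasts, fat cells and liver RNA in the Agt result was not tested.

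Ace (Entrez 11421) encodes the enzyme that cuts angiotensin I to angiotensin II and is known from the endothelium. KO_Aged hearts had 106, 93.3, 102 and 87.3 CPM of Ace, against 84.5, 84.9, 74.4 and 75.9 CPM in WT_Aged hearts. KO_Young hearts had 95.4, 71.4, 80.6 and 65.5 CPM, against 83.4, 84.3, 63.0 and 95.1 CPM in WT_Young hearts. All 4 KO_Aged hearts were above all 4 WT_Aged hearts, and the young groups overlapped over most of their range. Ace was not called in KO_Aged against WT_Aged, with 0.28 ± 0.12 (SE, 95% interval 0.04 to 0.53, edgeR BH-adjusted p = 0.367), a comparison in which 2.10% of all genes were higher without overlap. Between aged and young knockout hearts it had 0.31 ± 0.12 (adjusted p = 0.119), and 0.42 with an adjusted p of 0.0428 without KO_Young heart 27. The young groups differed by -0.06 ± 0.12 (95% interval -0.31 to 0.19), and the wild-type ages by -0.03 ± 0.12 (95% interval -0.28 to 0.22).

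Enpep (Entrez 13809) encodes aminopeptidase A, which shortens angiotensin II to angiotensin III. Its levels were 16.2, 17.1, 14.3 and 14.2 CPM in KO_Aged hearts and 15.7, 15.3, 13.5 and 11.5 CPM in WT_Aged hearts. KO_Young hearts had 19.7, 17.0, 17.8 and 13.4 CPM of Enpep and WT_Young hearts 17.4, 18.4, 17.2 and 16.6 CPM. All 4 WT_Aged hearts lay under all 4 WT_Young hearts, as 9.68% of all genes did. The change of -0.31 ± 0.12 in that comparison was not called (SE, 95% interval -0.56 to -0.07, edgeR BH-adjusted p = 0.0606). The other 3 pairs overlapped, with values between -0.14 and 0.14.

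Agtr1a (Entrez 11607) encodes the type 1a angiotensin II receptor, the main type 1 receptor of the mouse. It averaged 55.4 ± 5.67 CPM in KO_Aged, 56.4 ± 13.0 CPM in WT_Aged, 55.0 ± 5.45 CPM in KO_Young and 53.2 ± 7.98 CPM in WT_Young hearts (SD, n = 4 each). The WT_Aged hearts 12, 4, 5 and 1 had 51.0, 58.7, 73.3 and 42.7 CPM, so that group held both the lowest and the highest of the 16 hearts. Agtr1a changes lay between -0.03 and 0.09. The 95% interval was -0.31 to 0.26 in KO_Aged against WT_Aged and -0.20 to 0.37 in WT_Aged against WT_Young.

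Atp6ap2 (Entrez 70495) encodes the prorenin receptor, which is also an accessory protein of the vacuolar proton pump (V-ATPase). It had 28.98, 35.9, 36.0 and 33.6 CPM in KO_Aged hearts and 33.4, 33.8, 29.6 and 49.8 CPM in WT_Aged hearts. KO_Young hearts had 27.2, 29.1, 29.3 and 28.8 CPM and WT_Young hearts 33.5, 28.8, 29.8 and 29.6 CPM. The KO_Young hearts lay close together, with an SD of 0.943 CPM, and WT_Aged heart 1 stood far above its group. The wild-type ageing value of 0.27 ± 0.12 was not called (SE, edgeR BH-adjusted p = 0.124). It was 0.10 without WT_Aged heart 1 and 0.36 with an adjusted p of 0.0382 without WT_Aged heart 5.

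Nr3c2 (Entrez 110784) encodes the mineralocorticoid receptor, the nuclear receptor for aldosterone, which in heart muscle is mostly occupied by glucocorticoid. KO_Aged hearts had 29.6, 31.7, 37.7 and 30.6 CPM of Nr3c2, against 28.9, 30.6, 30.6 and 20.1 CPM in WT_Aged hearts 12, 4, 5 and 1. KO_Young hearts 27, 31, 38 and 53 had 39.9, 38.4, 35.7 and 34.3 CPM, against 28.5, 41.8, 37.8 and 37.4 CPM in WT_Young hearts 29, 34, 39 and 42. In both genotypes the aged hearts were mostly lower, and in both the ages overlapped, in wild type through WT_Young heart 29. Nr3c2 fell by 0.40 ± 0.13 on the log2 scale in WT_Aged against WT_Young (SE, 95% interval -0.67 to -0.13, edgeR BH-adjusted p = 0.0302). That call was lost without WT_Aged heart 1 (-0.26, adjusted p = 0.102), and without WT_Young heart 34, 39 or 42 (adjusted p = 0.132, 0.0743 and 0.0816). It was also lost with limma on log2(FPKM + 1) (-0.29, adjusted p = 0.126) and in a fit of the 2 groups alone (-0.38, adjusted p = 0.104). Aged knockout hearts gave -0.19 ± 0.13 against young knockout hearts (adjusted p = 0.404), and the difference between the ageing changes was 0.21 ± 0.18 (adjusted p = 0.698). The 7 heart muscle markers summed to 59372 to 69206 CPM in WT_Aged and 68511 to 73451 CPM in WT_Young hearts, where 1 of 7 fell. WT_Aged heart 1 had the lowest of these sums. The part of heart muscle cells in the Nr3c2 result was not tested.

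**Figure D3:**
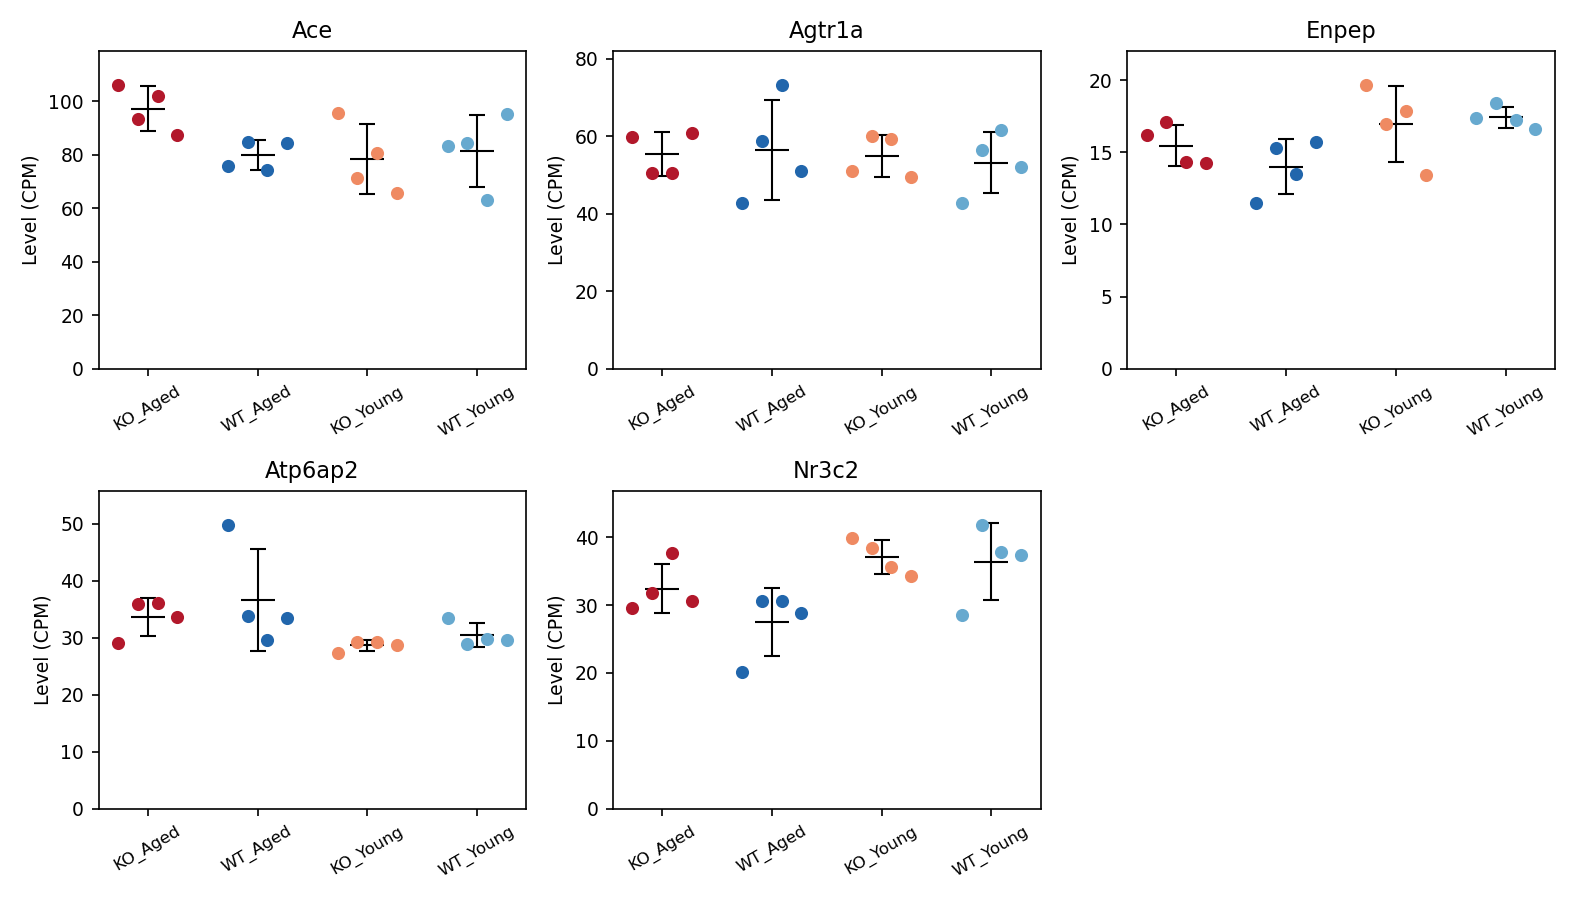
Level in CPM (vertical axes, each from 0) of Ace, Agtr1a, Enpep, Atp6ap2 and Nr3c2 in each heart, with 1 point per heart and the group mean and SD as bars. The KO_Aged hearts lie above the WT_Aged hearts for Ace, and 1 WT_Aged heart stands apart in Atp6ap2 (49.8 CPM) and Nr3c2 (20.1 CPM).

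**Figure D4:**
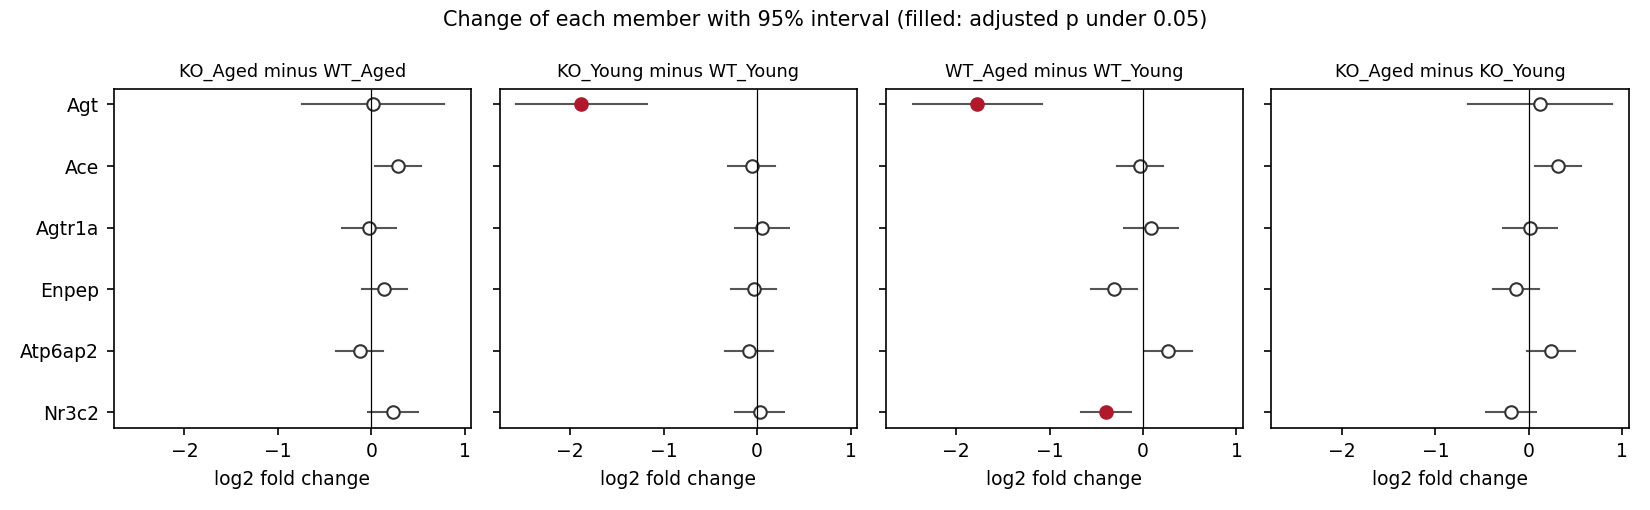
Log2 fold change (horizontal axis, points) with its 95% interval (lines) of each member in the 4 comparisons of groups, filled where the BH-adjusted p was under 0.05. Agt at -1.88 and -1.77 and Nr3c2 at -0.40 are filled, and the interval of Agt is the widest in each panel.

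Over the 6 members the median log2 change was 0.08 in KO_Aged against WT_Aged, -0.05 in KO_Young against WT_Young, -0.17 in WT_Aged against WT_Young and 0.07 in KO_Aged against KO_Young. Over all genes tested these medians were 0.00, 0.00, -0.01 and -0.01.

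Levels were compared between genes per length, in FPKM. Over all 16 hearts the order was Agtr1a at 27.3 ± 3.67, Ace at 20.2 ± 3.47, Atp6ap2 at 15.4 ± 2.97, Nr3c2 at 6.22 ± 0.963, Enpep at 4.05 ± 0.535 and Agt at 3.11 ± 2.88 FPKM (SD, n = 16). The receptor Agtr1a and the enzyme Ace overlapped in range, as did Ace and Atp6ap2, while Atp6ap2 and Nr3c2 did not. Agt was the lowest member in KO_Aged (2.05 ± 0.222 FPKM), WT_Aged (2.01 ± 0.340 FPKM) and KO_Young hearts (1.78 ± 0.530 FPKM; SD, n = 4 each), with no heart reaching the Enpep range of its group. In WT_Young hearts its FPKM were 6.61 ± 4.40 (3.75 to 13.1), above the Enpep mean of 4.31 ± 0.262 but overlapping it.

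The rest of the system was followed through a list of 22 further genes, of which 21 were in the table and 16 had enough counts to be tested. Ren1, the renin gene, had 0 counts in all 16 libraries, and with 3 counts taken as the limit that a count of 0 allows, its level was under 0.226 to 0.262 CPM of the plain total in a library. Agtr1b, the second type 1 receptor of rodents, had 2 counts in all libraries together, and Agtr2, the type 2 receptor, had 7. Mas1, the receptor for angiotensin-(1-7), had between 17 and 45 counts a library and was not called in any comparison.

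In aged against young knockout hearts, 4 of the 16 rose, against 5.03% of all genes, and 0 fell. Mme, or neprilysin, a peptidase that degrades angiotensin and natriuretic peptides, had 14.9, 19.6, 25.2 and 19.9 CPM in KO_Aged hearts, against 11.3, 11.9, 11.3 and 10.8 CPM in KO_Young hearts. The KO_Aged hearts all lay above the KO_Young hearts, as 8.71% of all genes did, and Mme rose by 0.81 ± 0.15 (SE, edgeR BH-adjusted p = 0.00165). Anpep, aminopeptidase N, had 17.8, 20.2, 22.8 and 19.7 CPM in KO_Aged and 15.6, 14.6, 15.2 and 12.8 CPM in KO_Young hearts and rose by 0.47 ± 0.10 (adjusted p = 0.00529), again with no overlap. Ctsd, the lysosomal protease cathepsin D, rose by 0.24 ± 0.07 (adjusted p = 0.0470). Cma1, the mast cell chymase, which can form angiotensin II, rose by 1.42 ± 0.43 (adjusted p = 0.0453) on 13, 22, 17 and 5 counts in KO_Aged against 6, 6, 4 and 4 counts in KO_Young hearts. The summed mast cell markers lay between 6.33 and 13.8 CPM in KO_Aged and 9.04 and 16.3 CPM in KO_Young hearts, a sum made mostly of Kit, which fell by 1.14 (adjusted p = 0.00606). The other mast cell proteases had values above 0 that did not pass, with 1.31 ± 0.47 for Cpa3, 0.91 ± 0.43 for Tpsb2 and 0.68 ± 0.46 for Mcpt4 (adjusted p = 0.104, 0.226 and 0.422). The part of mast cells in the Cma1 result was not tested. With no filter on low counts, 2 of the 4 calls were left.

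With age in wild-type hearts 3 of these 16 genes rose, against 11.8% of all genes, and 1 fell. Ctsd rose by 0.37 ± 0.07 (SE, edgeR BH-adjusted p = 0.00113) without overlap between the groups, with means of 1514 ± 23.5 CPM in WT_Aged and 1171 ± 53.7 CPM in WT_Young hearts (SD, n = 4 each). Prcp, a carboxypeptidase that can make angiotensin-(1-7), rose by 0.36 ± 0.13 (adjusted p = 0.0436), and Ctsa, cathepsin A, by 0.22 ± 0.07 (adjusted p = 0.0223). Counts of Ctsa were not whole in any of the 16 libraries, so reads may have been shared with another gene and its value is uncertain. Prep, prolyl endopeptidase, fell by 0.37 ± 0.09 (adjusted p = 0.00574). All 6 macrophage markers rose in this comparison, with sums of 328 to 441 CPM in WT_Aged and 114.7 to 162 CPM in WT_Young hearts, and in KO_Aged against KO_Young, with sums of 258 to 261 and 138 to 173 CPM, and their part in the protease results was not tested.

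Between genotypes 0 of the 16 passed in edgeR at either age, with 3 at an unadjusted p under 0.05 at each age. DESeq2 called 1 as higher in KO_Aged against WT_Aged and 0 in KO_Young against WT_Young. In KO_Aged against WT_Aged, Mme had 0.55 ± 0.14 (SE, edgeR BH-adjusted p = 0.0845) and Anpep 0.36 ± 0.10 (adjusted p = 0.0902). The difference between the ageing changes of the genotypes was 0.61 ± 0.14 for Anpep (adjusted p = 0.0557) and 0.73 ± 0.21 for Mme (adjusted p = 0.136). The median change of the 16 genes was 0.05 in KO_Aged against WT_Aged, 0.01 in KO_Young against WT_Young, 0.12 in WT_Aged against WT_Young and 0.08 in KO_Aged against KO_Young.

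**Figure D5:**
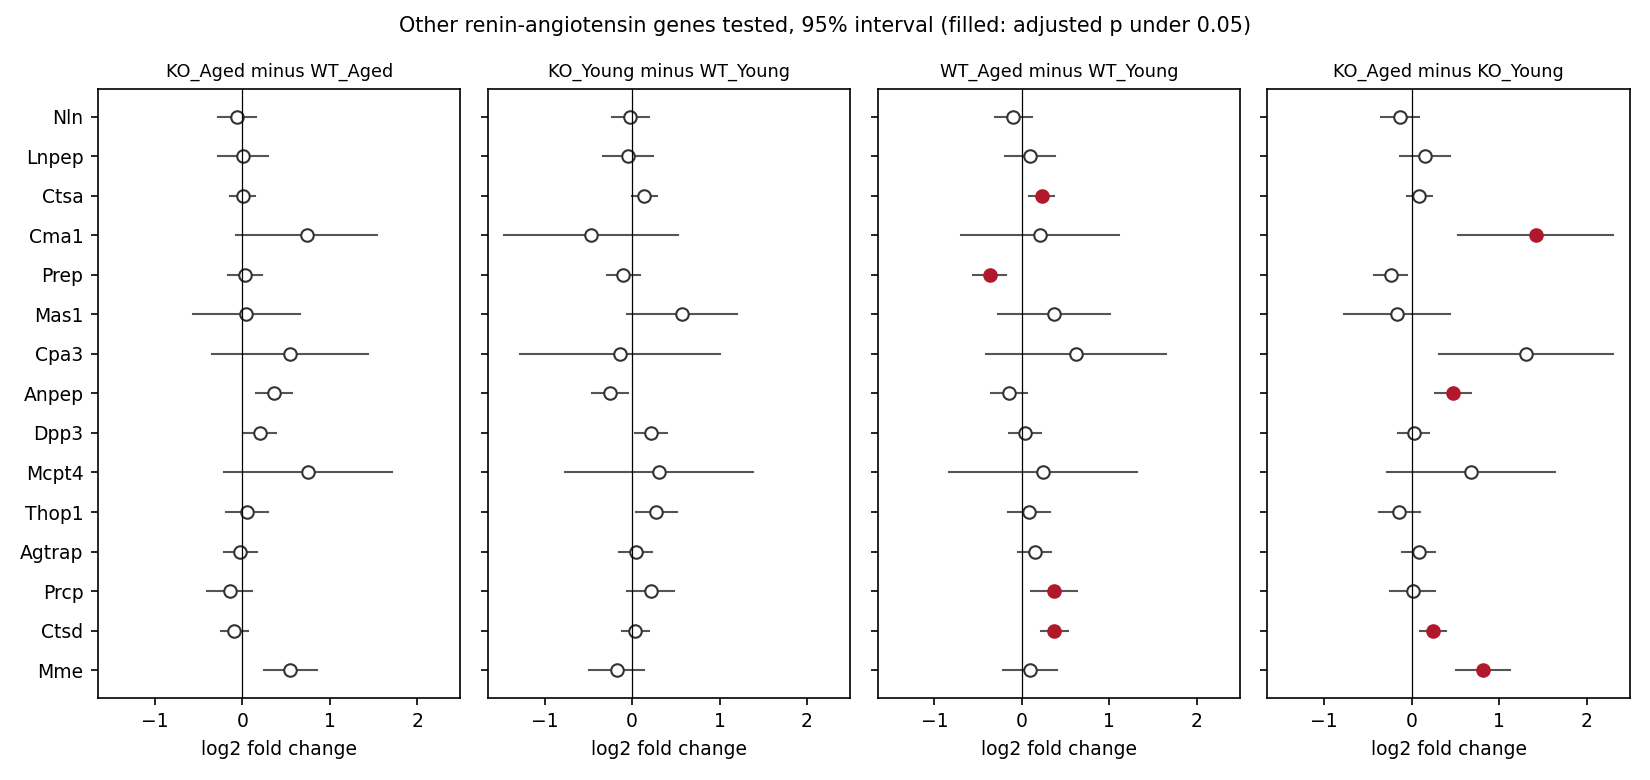
Log2 fold change (horizontal axis, points) with its 95% interval (lines) of all but 1 of the 16 further renin-angiotensin genes tested, in the 4 comparisons of groups, filled where the BH-adjusted p was under 0.05. No point is filled in the 2 comparisons of knockout with wild type, 4 are filled in WT_Aged minus WT_Young and 4 in KO_Aged minus KO_Young, where Mme reaches 0.81 and Anpep 0.47.

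Partners of 3 members were counted in the same way. Of 16 V-ATPase subunits, with which the Atp6ap2 protein associates, 2 rose and 0 fell with age in wild-type hearts, where 11.8% of all genes rose, 14 of 16 values were above 0 and the median was 0.14. With no filter on low counts 1 was called. Atp6v0e2 rose by 0.51 ± 0.11 (SE, edgeR BH-adjusted p = 0.00280) and Atp6v1c1 by 0.21 ± 0.07 (adjusted p = 0.0399). In knockout hearts with age 1 of the 16 rose, against 5.03% of all genes. It was Atp6v0e2, by 0.45 ± 0.11 (adjusted p = 0.0153). Neither comparison of genotypes called a subunit in edgeR or DESeq2, with 0 at an unadjusted p under 0.05 in aged and 2 in young hearts.

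Among corticosteroid receptors, enzymes and targets, 17 were listed and 12 tested, and in WT_Aged against WT_Young 1 rose and 5 fell, against 11.8% and 9.93% of all genes, with a median of -0.30. Hsd11b1, which regenerates active glucocorticoid in the cell, rose by 0.81 ± 0.15 (SE, edgeR BH-adjusted p = 0.000619). The hormone-induced genes Tsc22d3, Sgk1 and Klf9 fell by 0.53 ± 0.16, 0.33 ± 0.12 and 0.31 ± 0.11 (adjusted p = 0.0282, 0.0491 and 0.0461), and the sodium pump subunit Atp1b1 by 0.28 ± 0.10 (adjusted p = 0.0460). Sgk1 and Klf9 were named after their values were seen. In aged against young knockout hearts 1 of the 12 passed, Hsd11b1, which rose by 0.49 ± 0.15 (adjusted p = 0.0498), and 0 passed with no filter on low counts. With the filter, 7.63% of all genes passed there. In KO_Young against WT_Young edgeR called 0 of 12 with 5 at an unadjusted p under 0.05 and a median of -0.20, and DESeq2 called 2 as lower. There Atp1b1 had -0.40 ± 0.10 (adjusted p = 0.0932) and the glucocorticoid target Fkbp5 -1.09 ± 0.25 (adjusted p = 0.0991), both named after their values were seen. In KO_Aged against WT_Aged 0 of the 12 passed in either tool, with 0 at an unadjusted p under 0.05.

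The 22 genes of angiotensin receptor signalling were all tested, and with age in wild-type hearts 5 rose and 3 fell, against 11.8% and 9.93% of all genes. Cybb, Ncf1 and Cyba, subunits of the phagocyte NADPH oxidase, rose by 1.80 ± 0.14, 0.90 ± 0.16 and 0.40 ± 0.12 (SE, edgeR BH-adjusted p = 6.67e-08, 0.000503 and 0.0178). The receptor kinase Grk5 rose by 0.50 ± 0.08 and the arrestin Arrb2 by 0.68 ± 0.13. Prkca, a protein kinase C, fell by 0.49 ± 0.11, Rgs4, a brake on G protein signals, by 0.55 ± 0.16, and Itpr1, a calcium release channel, by 0.29 ± 0.10. These 3 genes and Cyba were named after their values were seen. With age in knockout hearts Grk5, Cybb and Ncf1 rose by 0.69 ± 0.09, 1.01 ± 0.14 and 0.96 ± 0.17, and 0 fell. There 5.03% of all genes rose. In KO_Aged against WT_Aged, Cybb alone passed and fell by 0.59 ± 0.13 (adjusted p = 0.0338), where 0.710% of all genes fell. Macrophage markers, among whose cells Cybb is known, summed to 258 to 261 CPM in KO_Aged and 328 to 441 CPM in WT_Aged hearts, and 1 of 6 fell. Neutrophil markers summed to 4.42 to 15.01 CPM in KO_Aged and 20.6 to 35.3 CPM in WT_Aged hearts, and 2 of 3 tested fell, S100a9 by 2.15 (adjusted p = 0.00671) and Csf3r by 1.25 (adjusted p = 0.0161). The part of macrophages and neutrophils in the Cybb result was not tested. In KO_Young against WT_Young edgeR called 0 of 22 with 3 at an unadjusted p under 0.05, and DESeq2 called 0.

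Of 12 genes widely reported as raised by angiotensin II in heart, all tested, 1 rose and 2 fell in WT_Aged against WT_Young, against 11.8% and 9.93% of all genes. Lgals3, the macrophage lectin galectin-3, rose by 2.75 ± 0.35 (SE, edgeR BH-adjusted p = 3.35e-05), while Acta1, skeletal muscle actin, fell by 2.42 ± 0.43 (adjusted p = 0.00163). Lgals3 also rose with age in knockout hearts, by 1.83 ± 0.34 (adjusted p = 0.00330). It was 1 of the 12 to rise there, against 5.03% of all genes. Between genotypes edgeR called 0 of 12 at either age, with 1 in aged and 2 in young hearts at an unadjusted p under 0.05, and DESeq2 called 1 as lower at each age. Of 10 transcription factors reported to act on the Agt gene, 0 passed in edgeR or DESeq2 in KO_Young against WT_Young, with 1 at an unadjusted p under 0.05. In WT_Aged against WT_Young 1 of the 10 rose and 1 fell, against 11.8% and 9.93% of all genes. Cebpa rose by 0.41 ± 0.14 (adjusted p = 0.0437) and Usf2 fell by 0.26 ± 0.08 (adjusted p = 0.0286).

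The genes whose log2 CPM followed Agt most closely over the 16 hearts, the top of 10471 genes averaging at least 5 CPM, were Sema7a (Pearson r = 0.83), Flt1 (0.82), Rnf111 (0.80), Pdss1 (0.80) and Cidea (0.79). By rank, with Spearman's rho, the values were 0.87, 0.74, 0.58, 0.54 and 0.59. Without WT_Young heart 29 these r were 0.79, 0.76, 0.66, 0.75 and 0.71. The hearts share their group means in this measure. When each heart was set against its group mean the closest were Tspyl2 (r = 0.86), Cers2 (0.79), Slc7a6 (0.77), Churc1 (0.75) and Tpra1 (0.75). Without heart 29, Tspyl2 had 0.85 and Cers2 0.63. The closest gene by log2 CPM was Bicc1 for Ace (0.83), Zmym3 for Agtr1a (0.89), Tanc1 for Enpep (0.88), Asah1 for Atp6ap2 (0.92) and Fam53b for Nr3c2 (0.93). These r were not computed without WT_Aged heart 1, the highest heart in Atp6ap2 and the lowest in Nr3c2. Every gene named in this paragraph was picked for its high r among all genes compared. Some r would be high through that choice alone, and no r was tested.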

How the data were processed

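RNA from 16 mouse hearts, 4 in each of 4 groups, was sequenced in bulk, and a count table and an FPKM table were deposited. The submitters' processing notes list HISAT and Bowtie2, with no version, and the genome build GRCm39. Neither the counting program nor the strandedness was found in them. The deposited expected counts were not whole in 9.57% to 10.5% of values per library (tolerance 1e-09) and were rounded. All 6 members had whole counts throughout. The authors' FPKM values were used for levels between genes and in limma alternatives with a pseudocount of 1 or 0.1 on the log2 scale, which understates changes of low genes. No columns of other samples were used. Titles of the 4 young wild-type samples carry other letters than WT, and their genotype field was followed.

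Genes were filtered with filterByExpr, scaled by TMM and tested with edgeR 4.0.16 (R 4.3.3) in 1 fit of all 16 libraries with 12 residual degrees of freedom, with 13373 genes tested, 5 contrasts and BH adjustment. Alternatives were RLE size factors, no filter, DESeq2 1.42.0, limma 3.58.1 on FPKM, the 2 groups alone and leaving out each heart. CPM of genes are counts over the library total times its TMM factor, and marker sums and the limit for a count of 0 use the plain library total. Within a group every pair of libraries differed by more than sampling noise (lowest chi-square per degree of freedom 3.67). The WT_Aged pairs were the most uneven, at 10.8 to 41.3, with the highest value between hearts 5 and 1. Pairs lay at 6.68 to 9.34 in KO_Aged, 6.04 to 12.6 in KO_Young and 3.67 to 17.3 in WT_Young.

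The members and gene lists were chosen with earlier results of these data known. Named genes were the members, the further renin-angiotensin genes with at least 10 counts in a library, up to 4 genes of each other list per comparison in order of adjusted p under 0.05, and the genes closest to a member by Pearson r. Values of some list genes are not reported here, though the counts include them. Exceptions are marked, and Ren1, Agtr1b and Agtr2 are named for their low counts. In the GENCODE annotation Agt and Atp6ap2 overlap no other gene. Ace, Enpep and Nr3c2 overlap genes on the other strand, and without strandedness their reads cannot be told apart. On their own strand, Agtr1a overlaps an intronic transcript and Nr3c2 a small nuclear RNA gene.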

Additional observations from a re-analysis of the deposited data

Results flagged for a closer look

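In 88 groups of 4 hearts, made of the members and the further renin-angiotensin genes tested in each group, 4 held a heart whose gap to the nearest other heart took more than 0.829 of the group's range (Dixon's test), where chance gives about 1 in 20. Nr3c2, the mineralocorticoid receptor, was lowest in WT_Aged heart 1 at 20.1 CPM, with the next heart at 28.9 CPM, and the wild-type ageing call of this gene was lost without that heart. Mas1, the receptor for angiotensin-(1-7), was lowest in KO_Aged_122 at 1.45 CPM, with the next at 2.51 CPM, on few counts. Anpep, aminopeptidase N, was highest in WT_Aged heart 4 at 18.1 CPM, with the next at 15.04 CPM. Agtrap, which binds and internalises the type 1 receptor, was lowest in WT_Young heart 29 at 51.3 CPM, with the next at 61.8 CPM. The Agt level of WT_Young heart 29, 20.3 CPM with the next at 9.73 CPM, took 0.736 of its group's range and did not reach the limit.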

How the results depend on the processing

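No paired analysis was possible because no animal number occurred in more than 1 group. Agt was called in WT_Aged against WT_Young under all 7 alternatives (-1.78 to -1.19, adjusted p 2.08e-06 to 0.0122) and without any 1 heart (-1.96 to -1.23). In KO_Young against WT_Young it was called under 4 of 7, and not with limma on log2(FPKM + 1) (-1.32), on log2(FPKM + 0.1) (-1.68) or in the 2 groups alone (-1.89), where 0 members were called; leaving out 1 heart gave -2.07 to -1.34 and 0 to 1 members called. The interaction of Agt was called by DESeq2 (1.90, 1 member called) and lay between 1.36 and 2.09 without 1 heart. In WT_Aged against WT_Young 1 member was called with each limma setting and in the 2 groups alone, and 1 to 3 without 1 heart; in KO_Aged against KO_Young it was 0 to 1. The number of all genes called moved by more than 1.5 times in 3 comparisons. In KO_Young against WT_Young it was 36 in edgeR, 149 in DESeq2, 135 in the 2 groups alone, and 7 and 8 with limma at pseudocounts of 1 and 0.1. In KO_Aged against WT_Aged it was 117, 263 in DESeq2, 17 in the 2 groups alone and 56 with limma at 0.1. For the interaction it was 62, 213 in DESeq2, and 39 and 33 with limma. The cause of these moves was not tested.

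Uncalled values changed sign. Ace in WT_Aged against WT_Young was 0.12, 0.13 and 0.12 with limma on log2(FPKM + 1), on log2(FPKM + 0.1) and with mean FPKM of at least 1. Without 1 heart, Agt spanned -0.075 to 0.12 in KO_Aged against WT_Aged and -0.039 to 0.25 in KO_Aged against KO_Young. Over the same fits, in KO_Aged against WT_Aged, Agtr1a spanned -0.15 to 0.13 and Atp6ap2 -0.21 to 0.050. In KO_Young against WT_Young, Ace spanned -0.16 to 0.032, Agtr1a -0.039 to 0.12, Enpep -0.11 to 0.059 and Nr3c2 -0.069 to 0.11. In WT_Aged against WT_Young, Ace spanned -0.13 to 0.067 and Agtr1a -0.067 to 0.22, and in KO_Aged against KO_Young Agtr1a spanned -0.036 to 0.060. For the interaction, Agtr1a spanned -0.20 to 0.078 and Atp6ap2 -0.12 to 0.13. With no filter, list counts moved to 1 of the V-ATPase subunits and 1 of the transcription factors in WT_Aged against WT_Young. Agt rested on 22 to 47 counts in the low hearts, which limits what could be detected among them.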
